A study of Mus musculus with 26 samples.

Results

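The genes described here are 35 genes of the endothelium and of the blood-brain barrier, out of 24454 genes counted in RNA from mouse gliomas. They were found by symbol: all 35 symbols matched an Entrez identifier of the count table, and all 35 had enough counts to be tested. Of these, 22 are genes of endothelial cells in general (pan-endothelial genes), and 13 are genes of the brain endothelial barrier, 6 of which encode transporters. The tumours were driven by PDGF and lacked the tumour suppressor Trp53 in every group, the controls included. The 26 libraries fall into 5 genotypes: 6 come from control tumours, wild type for Notch1, Notch2 and Rbpj. The Notch1-/- group has 6 libraries, the Notch2-/- group 5, the group without both receptors (Notch1-/-Notch2-/-) 5, and the Rbpj-/- group 4. Early tumours were found by the GFP of a Rosa-CAG::GFP reporter that Cre recombinase switches on, dissected, and sorted by flow cytometry for GFP-positive cells. The sources used here give neither the age and strain of the mice nor how PDGF and Cre were brought in. No label ties a replicate to an animal of its own, and the p-values therefore reflect a spread among samples that could be technical.

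Endothelial cells line blood vessels and are recognised by adhesion molecules such as Pecam1 and Cdh5, by receptors for vascular growth factors and by transcription factors of the ETS and SoxF families. In the brain they also form the blood-brain barrier: tight junctions seal the cells to each other, efflux pumps return drugs to the blood, and carriers bring selected nutrients and hormones in. Notch1 and Notch2 are receptors whose cleaved intracellular parts switch genes on together with the DNA-binding protein Rbpj, a pathway that endothelial cells use as well as glial cells. The libraries were made from sorted glioma cells and not from sorted vessels. Fewer endothelial cells in a sort and less RNA of these genes per cell cannot be told apart in such bulk libraries.

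Library totals ran from 30868828 to 48103535 counts. Levels are given as CPM, the counts of a gene relative to the library total, on totals scaled by TMM (trimmed mean of M values), ± gives the standard deviation beside a level and the standard error beside a log2 fold change, and a gene is called where its adjusted p is under 0.05. Of the deleted genes, Notch2 fell in Notch2-/- (12.7 ± 2.73 CPM in control, 7.35 ± 0.950 CPM in Notch2-/-, adjusted p = 0.020) and Rbpj fell in Rbpj-/- (61.2 ± 6.43 against 37.8 ± 13.5 CPM, adjusted p = 0.0222). Notch1 was not lower in either group labelled for its loss: it had 108.7 ± 30.8 CPM in control, 143.9 ± 45.4 in Notch1-/- (adjusted p = 0.204) and 139.1 ± 59.5 in Notch1-/-Notch2-/- (0.270). Nor was Notch2 called in Notch1-/-Notch2-/- (11.2 ± 1.32 CPM, adjusted p = 0.377). The labels do not say which part of a gene was deleted, and a genotype here means the label. The summed level of 10 genes of oligodendrocyte precursors was 8432 to 21630 CPM over the libraries, while that of 9 genes that define endothelium was 31.5 to 146.8 CPM in control and 7.00 to 25.6 CPM in Notch1-/-. None of the 9 was at 0 in all libraries of a genotype. The libraries of control replicate 6 and Notch2-/- replicates 3 and 4 held both Xist and the Y-linked Ddx3y.

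**Figure D1:**
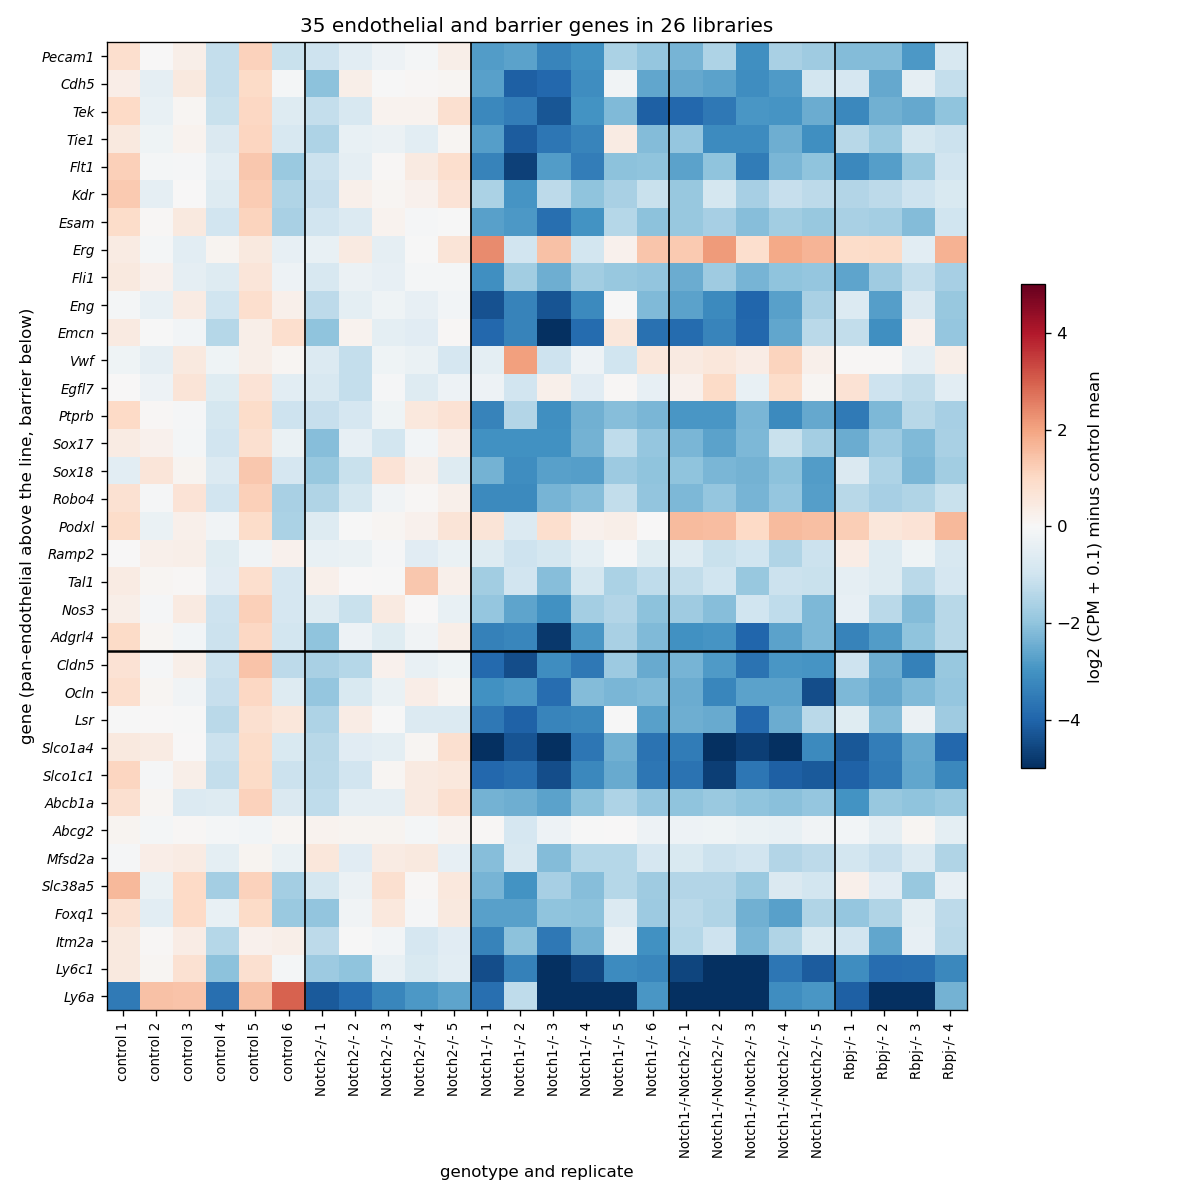
Level of each of the 35 genes (rows) in each of the 26 libraries (columns, by genotype and replicate), as log2 of CPM plus a small constant minus the mean of the controls; blue is lower, red is higher, and values past the ends of the colour bar take its end colours. The Notch2-/- columns are the nearest to the controls, with replicate 1 the lowest, while in the 3 other mutant genotypes most rows are blue, save Erg, Vwf, Egfl7, Podxl and Abcg2.

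The level of a gene per kilobase of its deposited length allows genes to be compared within the controls. On that scale the order began with Ly6a (93.6 ± 97.3 CPM per kb, n = 6), Mfsd2a (83.2 ± 20.1), Abcg2 (38.9 ± 3.30), Ramp2 (35.8 ± 7.65) and Itm2a (33.5 ± 11.3). Ly6a and Mfsd2a did not differ beyond their standard deviations, nor did Abcg2, Ramp2 and Itm2a, while the steps from Mfsd2a to Abcg2 and from Itm2a to the next gene were larger than the deviations. That next gene was Ly6c1 (11.4 ± 5.43), followed by the transporters Slco1c1 (10.8 ± 6.49) and Slco1a4 (6.16 ± 2.99), and these 3 overlapped. The classical pan-endothelial genes were lower: Pecam1 at 2.69 ± 1.63, Cdh5 at 1.62 ± 0.781 and Tek at 1.22 ± 0.742 CPM per kb. The transcription factors Sox17 (0.189 ± 0.0851) and Tal1 (0.158 ± 0.0761) closed the order.

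Control libraries differed from each other in many of these genes at once. Control replicate 5 had the highest level of its group for 22 of the 35 genes and replicate 4 the lowest for 19. In Notch2-/-, replicate 1 was lowest for 26 genes and replicate 5 highest for 18. In Notch1-/-, replicate 5 was highest for 22 genes. Genes of 1 library share its make-up and are not independent of each other.

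Against control, 29 of the 35 genes fell in Notch1-/- and none rose, while 13.5% of all 15617 genes tested fell and 13.2% rose in that comparison. In Notch1-/-Notch2-/-, 30 of 35 fell (18.8% of all genes) and 2 rose (18.3% of all genes). In Rbpj-/-, 20 of 35 fell (7.25% of all genes) and none rose (7.97% of all genes) by edgeR, while limma voom had 23 falling and 1 rising, Podxl, which edgeR also called higher without control replicate 1. In Notch2-/-, none of the 35 was called by edgeR, where 0.295% of all genes were called in either direction. At an unadjusted p under 0.05 there were 2, Ly6a and Ly6c1, while DESeq2 called Ly6a and limma voom called none. The 4 comparisons share the 6 control libraries. Every library of the mutant lay below every control library for 17 of the 35 genes in Notch1-/- (3.50% of all genes), for 23 in Notch1-/-Notch2-/- (11.1%), for 12 in Rbpj-/- (4.96%) and for none in Notch2-/- (0.768%). In Notch1-/-Notch2-/- every library lay above every control for 2, Erg and Podxl (11.6%).

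The Rbpj-/- count rested most on a single library: without Rbpj-/- replicate 2, 11 of the 35 were called, where calls over all genes went from 2378 to 1132, and Ly6a, Cldn5, Flt1, Kdr, Nos3, Sox17, Sox18, Robo4 and Mfsd2a were lost. The calls of the other 11 (Abcb1a, Adgrl4, Esam, Fli1, Ly6c1, Ocln, Pecam1, Ptprb, Slco1a4, Slco1c1 and Tek) held under every alternative that was planned, each where the gene passed its filter.

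**Figure D2:**
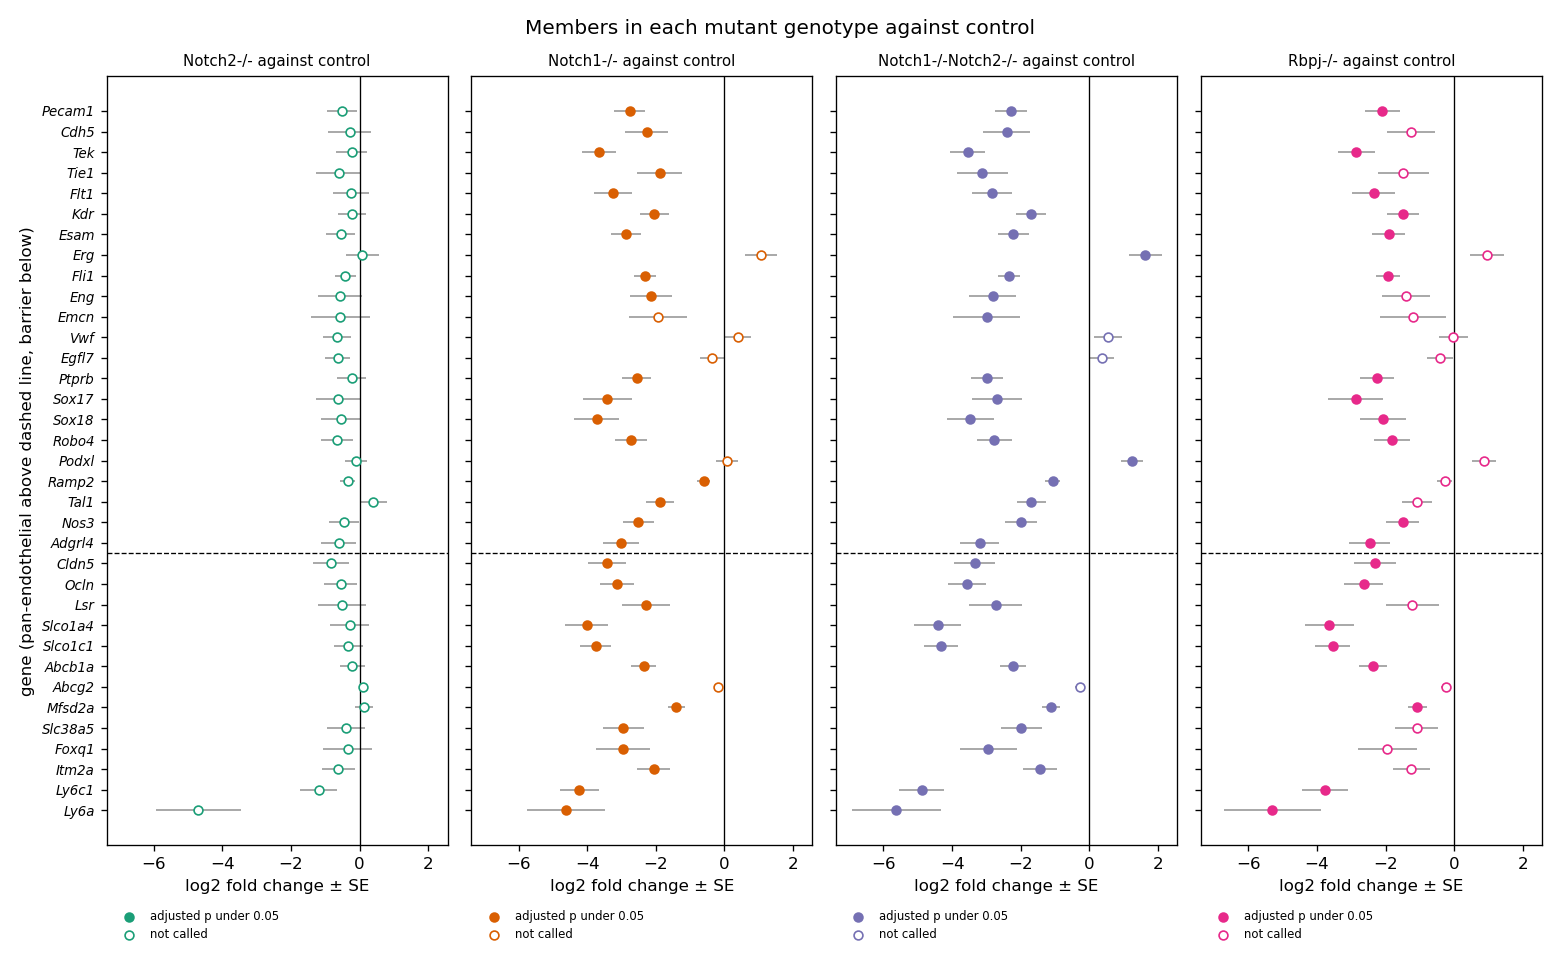
Log2 fold change with its standard error (horizontal axis) of each of the 35 genes (vertical axis) in each mutant genotype against control; filled points passed the adjusted p of 0.05. Most points of Notch1-/-, Notch1-/-Notch2-/- and Rbpj-/- are filled and left of 0, and all points of Notch2-/- are open.

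Among the receptors for vascular growth factors, Tek, the receptor for angiopoietins, had 9.94, 3.75, 5.32, 2.22, 10.2 and 3.11 CPM in control replicates 1 to 6. It had 0.442, 0.356, 0.158, 0.528, 0.999 and 0.199 CPM in Notch1-/- replicates 1 to 6, and 0.227, 0.318, 0.560, 0.546 and 0.795 CPM in Notch1-/-Notch2-/- replicates 1 to 5. Rbpj-/- replicates 1 to 4 had 0.445, 0.855, 0.746 and 1.14 CPM. All 15 libraries of these genotypes lay below the lowest control. Tek fell by 3.66 ± 0.49 on the log2 scale in Notch1-/- (adjusted p = 5.85e-05), by 3.55 ± 0.52 in Notch1-/-Notch2-/- (4.31e-05) and by 2.85 ± 0.55 in Rbpj-/- (0.0032). In Notch2-/- replicates 1 to 5 it had 2.12, 2.79, 5.58, 5.50 and 8.57 CPM, a range that overlaps the controls (log2 fold change -0.23 ± 0.45, adjusted p = 0.825).

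Flt1, a receptor that binds VEGF, ranged from 2.70 to 26.1 CPM in control (median 9.58), from 0.301 to 2.47 in Notch1-/-, from 0.816 to 2.44 in Notch1-/-Notch2-/- and from 0.983 to 5.20 in Rbpj-/-. Its log2 fold changes were -3.24 ± 0.56 (adjusted p = 0.000479), -2.83 ± 0.58 (0.000841) and -2.34 ± 0.62 (0.0163). Kdr, the main VEGF receptor of endothelium, ranged from 2.78 to 20.1 CPM in control. Its groups overlapped in every comparison, since control replicate 6 was as low as the mutants. It fell by 2.04 ± 0.41 in Notch1-/- (adjusted p = 0.00158), by 1.71 ± 0.43 in Notch1-/-Notch2-/- (0.00384) and by 1.49 ± 0.46 in Rbpj-/- (0.0326). Tie1, the orphan partner of Tek, fell in Notch1-/-Notch2-/- (-3.12 ± 0.74, adjusted p = 0.00259) and in Notch1-/- (-1.89 ± 0.65, 0.0351). In Rbpj-/- all 4 libraries (0.658 to 1.39 CPM) were below the controls (1.49 to 5.62 CPM), yet the difference did not pass (-1.49 ± 0.74, adjusted p = 0.17).

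The junction and surface proteins of endothelium were mostly lower as well. Pecam1, an adhesion molecule, had a median of 8.43 CPM in control (3.22 to 16.7), 1.05 in Notch1-/- (0.664 to 2.47), 2.10 in Notch1-/-Notch2-/- (0.816 to 2.49) and 1.60 in Rbpj-/- (0.952 to 4.25). It fell by 2.76 ± 0.45, 2.29 ± 0.47 and 2.09 ± 0.51 on the log2 scale in that order (adjusted p = 0.00031, 0.000814 and 0.0106). Esam, a junctional adhesion molecule, Ptprb, a phosphatase that acts on Tek, and Adgrl4, an adhesion G protein-coupled receptor, also fell in all 3 genotypes. Their log2 fold changes lay between -3.19 and -1.91. Robo4, a guidance receptor of vessels, fell by 2.72 ± 0.47, 2.77 ± 0.51 and 1.81 ± 0.52 (adjusted p = 0.000535, 0.000305 and 0.0239).

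Cdh5, the cadherin of endothelial junctions, fell in Notch1-/- (-2.27 ± 0.63, adjusted p = 0.0121) and Notch1-/-Notch2-/- (-2.41 ± 0.68, 0.00842). It was not called in Rbpj-/- (-1.27 ± 0.70, adjusted p = 0.22). Eng, a co-receptor for TGF-beta, followed the same order of calls, with -2.14 ± 0.62 (adjusted p = 0.0157), -2.82 ± 0.69 (0.00316) and -1.41 ± 0.70 (0.169). Emcn, a sialomucin of veins and capillaries, was called in the main edgeR fit in Notch1-/-Notch2-/- alone among the comparisons with control (-3.00 ± 0.96, adjusted p = 0.0181). DESeq2 and limma voom also called its fall in Notch1-/-. The gene span of Eng overlaps that of Fpgs, which rose in Notch1-/-Notch2-/- and Rbpj-/-, and no source used here gives the strand setting of the counts.

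The transcription factors did not move as 1 group. Fli1, an ETS factor, had 1.80 to 4.46 CPM in control, and all libraries of Notch1-/- (0.256 to 0.793), Notch1-/-Notch2-/- (0.432 to 0.768) and Rbpj-/- (0.374 to 1.21) were lower. It fell by 2.32 ± 0.31, 2.33 ± 0.33 and 1.92 ± 0.35 (adjusted p = 5.85e-05, 2.91e-05 and 0.00236). Erg, an ETS factor close to Fli1, went the other way. It had 3.33, 2.34, 1.71, 2.70, 3.47 and 1.84 CPM in control replicates 1 to 6 and 6.34, 11.1, 4.55, 9.53 and 8.30 CPM in Notch1-/-Notch2-/- replicates 1 to 5. All 5 double mutants lay above all controls, and Erg rose by 1.63 ± 0.48 on the log2 scale (adjusted p = 0.0102). In Notch1-/- replicates 1 to 6 Erg had 13.0, 1.23, 7.08, 1.26, 2.88 and 6.67 CPM, which spans the control range on both sides (1.06 ± 0.46, adjusted p = 0.0824). Without Notch1-/- replicate 2, or without replicate 4, edgeR called Erg higher in Notch1-/-, with an adjusted p as low as 0.027. In Rbpj-/- its log2 fold change was 0.95 ± 0.50 (adjusted p = 0.194).

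The SoxF factors Sox17 and Sox18 were sparse, with at most 62 and 99 counts in a control library. Sox17 had 0 counts in Notch1-/- replicates 1 to 3 and at most 10 in any Notch1-/- or Notch1-/-Notch2-/- library. It fell by 3.41 ± 0.72, 2.70 ± 0.72 and 2.86 ± 0.81 in Notch1-/-, Notch1-/-Notch2-/- and Rbpj-/- (adjusted p = 0.00215, 0.00596 and 0.0211). Sox18 fell by 3.73 ± 0.65, 3.47 ± 0.68 and 2.06 ± 0.67 (adjusted p = 0.000535, 0.000535 and 0.039). Tal1, a factor of endothelial and blood progenitors, fell in Notch1-/- (-1.89 ± 0.40, adjusted p = 0.00227) and Notch1-/-Notch2-/- (-1.70 ± 0.42, 0.00337), and was not called in Rbpj-/- (-1.09 ± 0.44, 0.0891).

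Of the other pan-endothelial genes, Podxl, a sialomucin that coats the vessel lumen and also other cells, rose in Notch1-/-Notch2-/-. It had 30.2, 29.3, 20.0, 30.7 and 29.0 CPM in those 5 libraries and 19.2, 7.99, 12.0, 8.91, 19.0 and 3.29 CPM in control replicates 1 to 6, with no overlap (1.25 ± 0.33, adjusted p = 0.00565). The 4 Rbpj-/- libraries had 23.9, 14.9, 16.4 and 31.03 CPM of Podxl, and replicates 2 and 3 lay within the control range (0.88 ± 0.35, adjusted p = 0.0862). In Notch1-/- its log2 fold change was 0.08 ± 0.32 (adjusted p = 0.868). Egfl7, a secreted vessel protein, was not called in any comparison with control, with 2.60 to 6.37 CPM in control and log2 fold changes from -0.64 to 0.36.

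Vwf, the clotting factor stored by endothelium and platelets, had 9.93 to 19.3 CPM in control, 16.2 to 29.7 CPM in Notch1-/-Notch2-/- and 10.1 to 16.7 CPM in Rbpj-/-, and was not called in any of the 4 comparisons. Notch1-/- replicate 2 stood at 56.6 CPM against 6.67 to 20.6 CPM in the other 5. A list of 8 platelet genes summed to 229.3 CPM in that library and to 32.3 to 52.3 CPM in the other Notch1-/- libraries. Nearly all of this was Gp1bb, which reached 228.0 CPM, while Pf4 did not exceed 0.423 CPM, Ppbp 0.135 CPM and Itga2b 2.79 CPM in any library. The part of platelets in the Vwf value was not tested. Ramp2, a subunit of the adrenomedullin receptor, fell in Notch1-/-Notch2-/- (-1.07 ± 0.21, adjusted p = 0.000549) and Notch1-/- (-0.61 ± 0.20, 0.0259), from 31.2 ± 6.67 CPM in control to 14.8 ± 3.06 and 20.5 ± 5.10. The call in Notch1-/- ended without Notch1-/- replicate 1 or 3 or control replicate 2, 3 or 6 (adjusted p up to 0.0624). Nos3, the endothelial nitric oxide synthase, fell in Notch1-/-, Notch1-/-Notch2-/- and Rbpj-/-, with log2 fold changes of -2.51 ± 0.45, -1.99 ± 0.47 and -1.502 ± 0.49 (adjusted p = 0.00063, 0.00225 and 0.0413). Its span overlaps Atg9b, which rose in Notch1-/-Notch2-/- from 0.341 ± 0.188 to 1.17 ± 0.213 CPM (adjusted p = 0.00261).

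**Figure D3:**
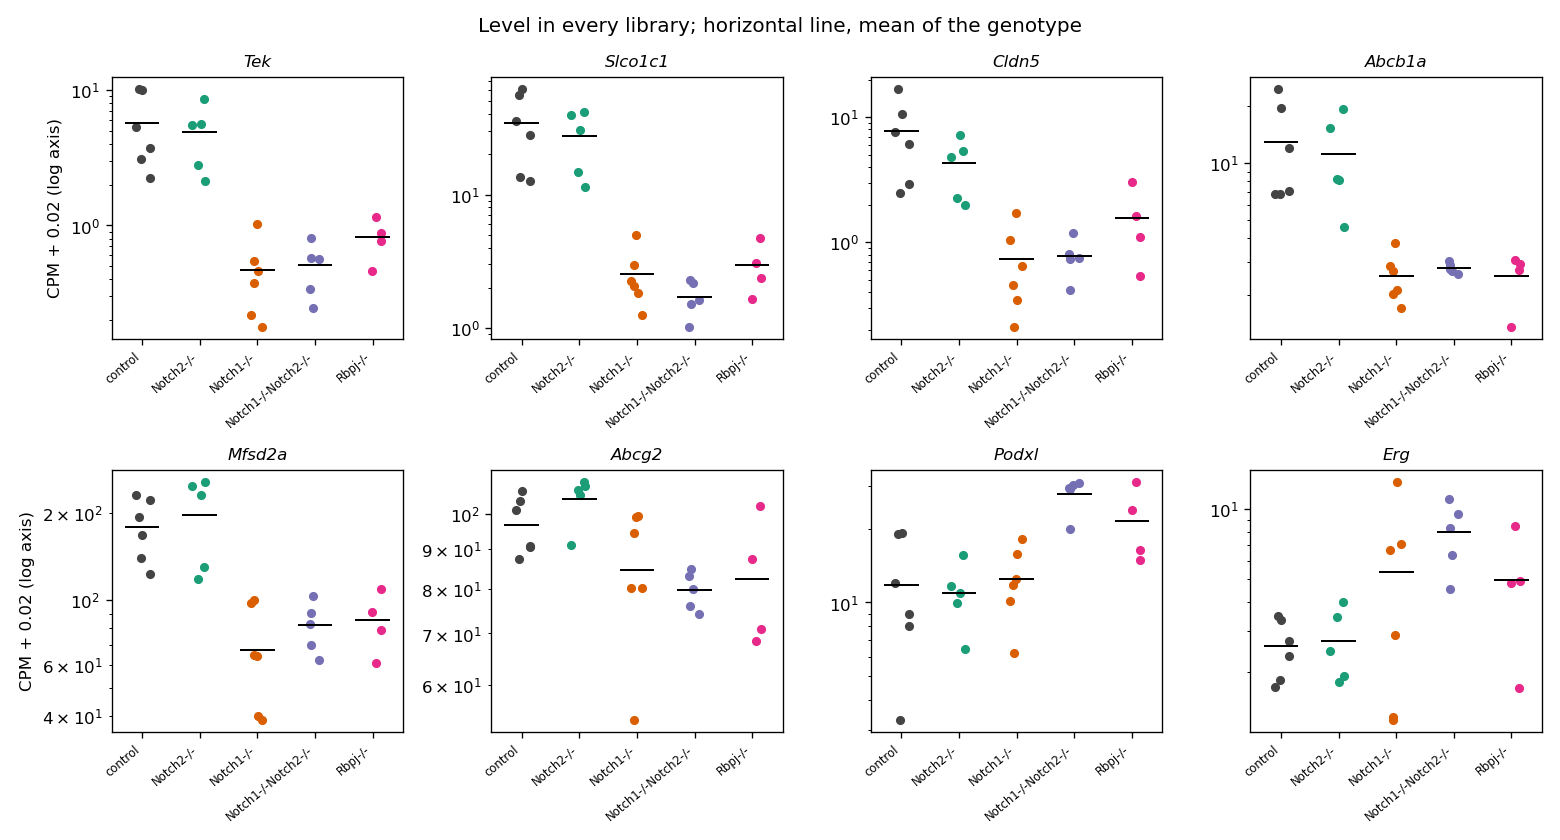
CPM of 8 genes in every library (vertical log axis, each panel with its own range; a small constant is added) by genotype (horizontal axis), with the arithmetic mean as a line. Tek, Slco1c1, Abcb1a and Mfsd2a separate Notch1-/-, Notch1-/-Notch2-/- and Rbpj-/- from control without overlap, Cldn5 overlaps in Rbpj-/-, Abcg2 stays between 54.1 and 110 CPM, and Podxl and Erg are higher in Notch1-/-Notch2-/-.

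The tight junction genes of the barrier list fell with the receptors. Cldn5, the main claudin of brain vessels (chromosome 16, 18776847 to 18778262), had 10.5, 6.09, 7.67, 2.92, 16.8 and 2.46 CPM in control replicates 1 to 6. It had 0.326, 0.192, 0.632, 0.440, 1.69 and 1.02 CPM in Notch1-/-, 1.16, 0.795, 0.397, 0.737 and 0.718 CPM in Notch1-/-Notch2-/-, and 3.00, 1.08, 0.514 and 1.60 CPM in Rbpj-/-. Rbpj-/- replicate 1 lay within the control range and all other libraries of the 3 genotypes lay below it. Cldn5 fell by 3.42 ± 0.55, 3.34 ± 0.59 and 2.32 ± 0.61 (adjusted p = 0.000286, 0.00023 and 0.016). Ocln, the junction protein occludin, fell by 3.14 ± 0.50, 3.57 ± 0.55 and 2.64 ± 0.57 (adjusted p = 0.000255, 6.95e-05 and 0.00592), with every mutant library below the controls. Lsr, the receptor angulin-1 of tricellular junctions, fell in Notch1-/- (-2.30 ± 0.70, adjusted p = 0.0193) and Notch1-/-Notch2-/- (-2.73 ± 0.77, 0.00799) but was not called in Rbpj-/- (-1.22 ± 0.77, 0.286).

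The 6 barrier transporters divided into genes with large falls, 1 with a small fall and 1 that was not called in the main edgeR fit. Slco1c1, the carrier of thyroxine (chromosome 6, 141524354 to 141570177), had 61.3, 27.9, 35.6, 12.6, 55.5 and 13.6 CPM in control replicates 1 to 6. It had 1.82, 2.05, 1.23, 2.96, 4.92 and 2.24 CPM in Notch1-/-, 2.16, 1.01, 2.26, 1.61 and 1.49 CPM in Notch1-/-Notch2-/-, and 1.64, 2.37, 4.73 and 3.04 CPM in Rbpj-/-. The highest mutant library was below the lowest control. Slco1c1 fell by 3.76 ± 0.45, 4.33 ± 0.50 and 3.54 ± 0.52 on the log2 scale (adjusted p = 2.2e-05, 4.71e-06 and 0.000445), 13.5-fold, 20.1-fold and 11.7-fold. Slco1c1 is also made by astrocytes, whose genes fell in part in the same genotypes (values are given with the other cell types).

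Slco1a4, a carrier of organic anions (chromosome 6, 141805438 to 141856284), had 29.9, 28.1, 21.3, 9.83, 40.02 and 12.2 CPM in control replicates 1 to 6. It had 0.127 to 3.92 CPM in Notch1-/- (median 1.25), 1.77, 0.424, 0.700, 0.355 and 2.23 CPM in Notch1-/-Notch2-/- and 1.03, 1.81, 3.45 and 1.30 CPM in Rbpj-/-. No mutant library of the 3 genotypes reached the controls. Slco1a4 fell by 4.02 ± 0.62, 4.42 ± 0.69 and 3.63 ± 0.72 (adjusted p = 0.000197, 7.35e-05 and 0.00377). It has near relatives in its gene cluster, among which reads may be shared.

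Abcb1a, the efflux pump P-glycoprotein (chromosome 5, 8567091 to 8748575), had 19.7, 12.1, 6.82, 7.06, 24.6 and 6.81 CPM in control replicates 1 to 6. It had 1.68 to 3.76 CPM in Notch1-/- (median 2.37), 2.66, 3.02, 2.71, 2.57 and 2.85 CPM in Notch1-/-Notch2-/- and 1.33, 2.89, 2.70 and 3.04 CPM in Rbpj-/-. These did not overlap the controls, and Abcb1a fell by 2.36 ± 0.36, 2.22 ± 0.38 and 2.37 ± 0.42 (adjusted p = 0.000177, 0.000172 and 0.00194). Its paralog Abcb1b, which is not among the 35, rose in Notch1-/- (0.52 ± 0.16, adjusted p = 0.020) and Notch1-/-Notch2-/- (0.92 ± 0.17, 0.000265). Rundc3b, whose span overlaps Abcb1a, rose in all 3 genotypes by 0.45 to 0.75. Reads of these genes could be exchanged in counting, and that was not tested.

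Mfsd2a, the carrier of lysophospholipids with docosahexaenoic acid (chromosome 4, 122946850 to 122961194), was much higher than the other falling transporters. In control Mfsd2a stood at 83.2 ± 20.1 CPM per kb and Pecam1 at 2.69 ± 1.63. Which of the sorted cells made the RNA of Mfsd2a was not tested. It had 167, 221, 230, 123, 192 and 140 CPM in control replicates 1 to 6, 39.97, 100, 38.8, 65.0, 64.2 and 97.6 CPM in Notch1-/-, 103, 82.9, 90.4, 62.4 and 70.1 CPM in Notch1-/-Notch2-/-, and 91.3, 78.9, 110 and 60.8 CPM in Rbpj-/-. All these libraries were below the lowest control, by a small step. Mfsd2a fell by 1.40 ± 0.25, 1.13 ± 0.26 and 1.07 ± 0.28 (adjusted p = 0.000615, 0.00217 and 0.0161), 2.64-fold, 2.19-fold and 2.10-fold. Slc38a5, a carrier of neutral amino acids, fell in Notch1-/- (-2.95 ± 0.59, adjusted p = 0.00159) and Notch1-/-Notch2-/- (-1.99 ± 0.60, 0.0123), and was not called in Rbpj-/- (-1.09 ± 0.62, 0.233). Its control values ran from 0.270 to 3.59 CPM.

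Abcg2, the efflux pump called breast cancer resistance protein (chromosome 6, 58584491 to 58692451), had 107, 90.5, 101.2, 90.7, 87.5 and 104 CPM in control replicates 1 to 6. It had 99.4, 54.1, 80.2, 94.4, 99.1 and 80.1 CPM in Notch1-/-, 79.9, 83.0, 76.0, 74.1 and 84.9 CPM in Notch1-/-Notch2-/-, and 87.3, 70.9, 102 and 68.4 CPM in Rbpj-/-. All 5 double mutants were below all controls, by a small margin. Per kilobase, Abcg2 had 38.9 ± 3.30 CPM in control and Pecam1 2.69 ± 1.63. Which of the sorted cells made the RNA of Abcg2 was not tested. No comparison of Abcg2 with control was called in the main edgeR fit. Its log2 fold changes were -0.20 ± 0.12 in Notch1-/-, -0.28 ± 0.13 in Notch1-/-Notch2-/- (adjusted p = 0.0872), -0.23 ± 0.14 in Rbpj-/- and 0.11 ± 0.13 in Notch2-/-. Limma voom called its fall in Notch1-/-Notch2-/-. So did edgeR with the filter of at least 10 CPM in at least 4 libraries, and with only the libraries of the groups compared.

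The last 4 barrier genes are Foxq1, Itm2a, Ly6c1 and Ly6a. Foxq1, a transcription factor enriched in brain endothelium, had 3 to 55 counts in the control libraries and fell in Notch1-/- (-2.96 ± 0.79, adjusted p = 0.00952) and Notch1-/-Notch2-/- (-2.94 ± 0.84, 0.00913). Itm2a, a membrane protein of brain endothelium, fell in Notch1-/- (-2.06 ± 0.48, adjusted p = 0.00407) and Notch1-/-Notch2-/- (-1.44 ± 0.50, 0.0269). The latter call ended without Notch1-/-Notch2-/- replicate 1, 3 or 4. Neither was called in Rbpj-/- (adjusted p = 0.12 and 0.111).

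Ly6c1, a surface protein of brain endothelium and of some leukocytes, had 22.1, 17.0, 27.04, 3.79, 27.4 and 14.8 CPM in control replicates 1 to 6. It had 0.0316 to 1.69 CPM in Notch1-/- (median 1.04), 0.569, 0.397, 0.187, 1.202 and 0.795 CPM in Notch1-/-Notch2-/- and 1.73, 1.05, 1.08 and 1.60 CPM in Rbpj-/-. No library of the 3 genotypes reached the controls, and Ly6c1 fell by 4.23 ± 0.58, 4.89 ± 0.65 and 3.77 ± 0.67 (adjusted p = 6.27e-05, 1.55e-05 and 0.00201). In Notch2-/- it had 4.46, 3.90, 12.2, 9.40 and 11.0 CPM (-1.19 ± 0.54, adjusted p = 0.315). Ly6c1 and Ly6a belong to a family of similar genes, among which reads may be shared.

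Ly6a, also called Sca-1, is a surface protein of brain endothelium that interferon also induces in other cells. It had 2.94, 96.6, 94.97, 2.47, 96.2 and 270 CPM in control replicates 1 to 6. The controls thus formed a high set and a pair of low libraries, replicates 1 and 4. Notch2-/- replicates 1 to 5 had 1.79, 2.30, 3.60, 4.72 and 5.57 CPM, Notch1-/- 0.127 to 14.3 CPM, Notch1-/-Notch2-/- 0.163 to 4.56 CPM and Rbpj-/- 0.309 to 6.68 CPM, and each of these ranges overlapped the low controls. The summed level of 10 interferon response genes, a list made after the data were seen, was 135.7 CPM in control replicate 1, 1290 in replicate 4 and 1988 to 5298 in the other controls. It was 9543 CPM in Notch1-/- replicate 2, where Ly6a was 14.3 CPM, the highest of its group. Ly6a fell in Notch1-/- (-4.62 ± 1.14, adjusted p = 0.00592), Notch1-/-Notch2-/- (-5.62 ± 1.30, 0.00208) and Rbpj-/- (-5.29 ± 1.41, 0.0168), and the part of the interferon genes in this was not tested.

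The 2 sets were set side by side without a test of their difference. The median log2 fold change of the 22 pan-endothelial genes was -2.29 in Notch1-/-, -2.37 in Notch1-/-Notch2-/- and -1.496 in Rbpj-/-. That of the 13 barrier genes was -2.96, -2.94 and -2.32. The medians over all genes tested were 0.035, 0.006 and 0.069. In the 6 transporters the medians were -2.66, -2.10 and -1.73, so the transporters taken alone did not show a uniformly deeper fall than the pan-endothelial genes. As counts, 12 of 13 barrier genes and 17 of 22 pan-endothelial genes fell in Notch1-/- (13.5% of all genes). In Notch1-/-Notch2-/- these were 12 of 13 and 18 of 22 (18.8% of all genes). In Rbpj-/- they were 8 of 13 and 12 of 22 (7.25% of all genes).

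The mean log2 CPM of the barrier genes minus that of the pan-endothelial genes describes the same balance within a library. It was 0.859 to 1.68 in the control libraries, 0.985 to 1.26 in Notch2-/-, 0.180 to 0.972 in Notch1-/-, 0.347 to 0.594 in Rbpj-/- and 0.134 to 0.635 in Notch1-/-Notch2-/-. The Notch1-/- libraries overlapped the controls and those of Notch1-/-Notch2-/- and Rbpj-/- did not. Ly6a, with its split among the controls, is part of this value. For the 6 transporters alone the value was 2.09 to 2.44 in control, 2.28 to 2.75 in Notch2-/-, 1.73 to 2.39 in Notch1-/-, 1.34 to 2.04 in Rbpj-/- and 1.34 to 2.15 in Notch1-/-Notch2-/-. On that measure Notch2-/- had a higher mean than control (2.52 against 2.27), Notch1-/- and Notch1-/-Notch2-/- overlapped the controls, and Rbpj-/- lay below them.

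In Notch2-/- none of the 35 genes was called by edgeR. The median log2 fold change was -0.49 over the pan-endothelial genes and -0.40 over the barrier genes, against 0.015 over all genes tested. Of the 35, 31 were negative, but these are not independent observations. Replicate 1 alone was the lowest Notch2-/- library for 26 of the 35. Slco1c1 had 11.4, 14.6, 30.5, 39.0 and 41.1 CPM in Notch2-/- replicates 1 to 5, within the range of the controls save replicate 1. Mfsd2a had 255, 118, 231, 246 and 130 CPM (0.13 ± 0.26, adjusted p = 0.82). The differences of Slco1c1 (-0.33 ± 0.42) and Slco1a4 (-0.29 ± 0.57) were smaller than their standard errors, and a small fall was not detectable at that error. Ly6a had -4.70 ± 1.24 (adjusted p = 0.123), and 2 of the controls lay within its Notch2-/- range.

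Notch1-/- was also compared with Notch2-/- directly, within the fit of all libraries. Of the 35 genes, 21 were lower in Notch1-/- than in Notch2-/- (2.25% of all genes were lower) and none was higher (0.839%). They were 13 of 22 pan-endothelial and 8 of 13 barrier genes. The smallest adjusted p-values were those of Slco1c1 (-3.42 ± 0.45, adjusted p = 8.42e-05), Tek (-3.44 ± 0.49, 0.000227), Fli1 (-1.90 ± 0.31, 0.000951), Slco1a4 (-3.73 ± 0.62, 0.00112) and Mfsd2a (-1.53 ± 0.26, 0.00119). For 16 of the 35 all Notch1-/- libraries were below all Notch2-/- libraries (2.40% of all genes). Ly6a did not differ in this comparison beyond its error (0.08 ± 1.05, adjusted p = 0.975). Without the libraries holding both Xist and Ddx3y, which leaves 3 of the Notch2-/- libraries, 13 of the 35 were lower, and calls over all genes in either direction went from 482 to 142. With only the libraries of both groups in the fit, 18 of the 35 were lower, without Sox17, Sox18 and Robo4. Calls over all genes in that fit were 294.

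Between Rbpj-/- and Notch1-/-Notch2-/- none of the 35 was called by edgeR (0.794% of all genes were called), with 2 at an unadjusted p under 0.05 and none by limma voom. DESeq2 called Ramp2, which was higher in Rbpj-/- (0.80 ± 0.23, edgeR adjusted p = 0.114). All 4 Rbpj-/- libraries were above all 5 double mutants for Tie1 and Robo4 (1.93% of all genes). The median difference was 0.54 on the log2 scale over the pan-endothelial genes and 0.79 over the barrier genes. The interaction of the losses of Notch1 and Notch2, which asks whether the double mutant departs from the sum of both single mutants, was not called for any of the 35 (0.0768% of all genes were called). At an unadjusted p under 0.05 there were 3 (Egfl7, Podxl and Ly6a), none by DESeq2 and by limma voom Vwf.

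Some pan-endothelial and barrier genes were high in single mutant libraries where fibroblast genes were high. A list of 8 fibroblast genes such as Dcn and Lum, made after the data were seen, summed to 1463 CPM in Notch1-/- replicate 5 and to 12.5 to 53.9 CPM in the other Notch1-/- libraries. In Rbpj-/- replicates 1 to 4 it summed to 390.4, 7.46, 1047 and 110.0 CPM, in the controls to 135.8 to 1033 CPM, in Notch2-/- to 33.8 to 1122 CPM and in Notch1-/-Notch2-/- to 9.14 to 374.3 CPM. Emcn had 0.186, 0.328, 0.0316, 0.205, 6.42 and 0.227 CPM in Notch1-/- replicates 1 to 6 and 1.78, 0.427, 4.99 and 1.04 CPM in Rbpj-/- replicates 1 to 4. Its high libraries were those with high fibroblast genes. The same libraries were high for Lsr (2.45 CPM in Notch1-/- replicate 5, 0.0547 to 0.284 in the other 5), Cdh5 (5.16 against 0.246 to 0.880), Tie1 (3.54 against 0.0547 to 0.511), Eng (9.82 against 0.396 to 2.07) and Itm2a (41.6 against 4.14 to 12.1). Tek, at 0.999 CPM, and Slco1c1, at 4.92 CPM, were the highest of their group in Notch1-/- replicate 5 too, and still below every control. Without Notch1-/- replicate 5 the adjusted p of Emcn in Notch1-/- went from 0.0905 to 0.00021, and that of Tie1 from 0.0351 to 8.25e-05. The Tie1 call ended without Notch1-/- replicate 1, 3, 4 or 6 or control replicate 1, 3 or 5, with an adjusted p of up to 0.0792, and with only the libraries of both groups in the fit.

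**Figure D4:**
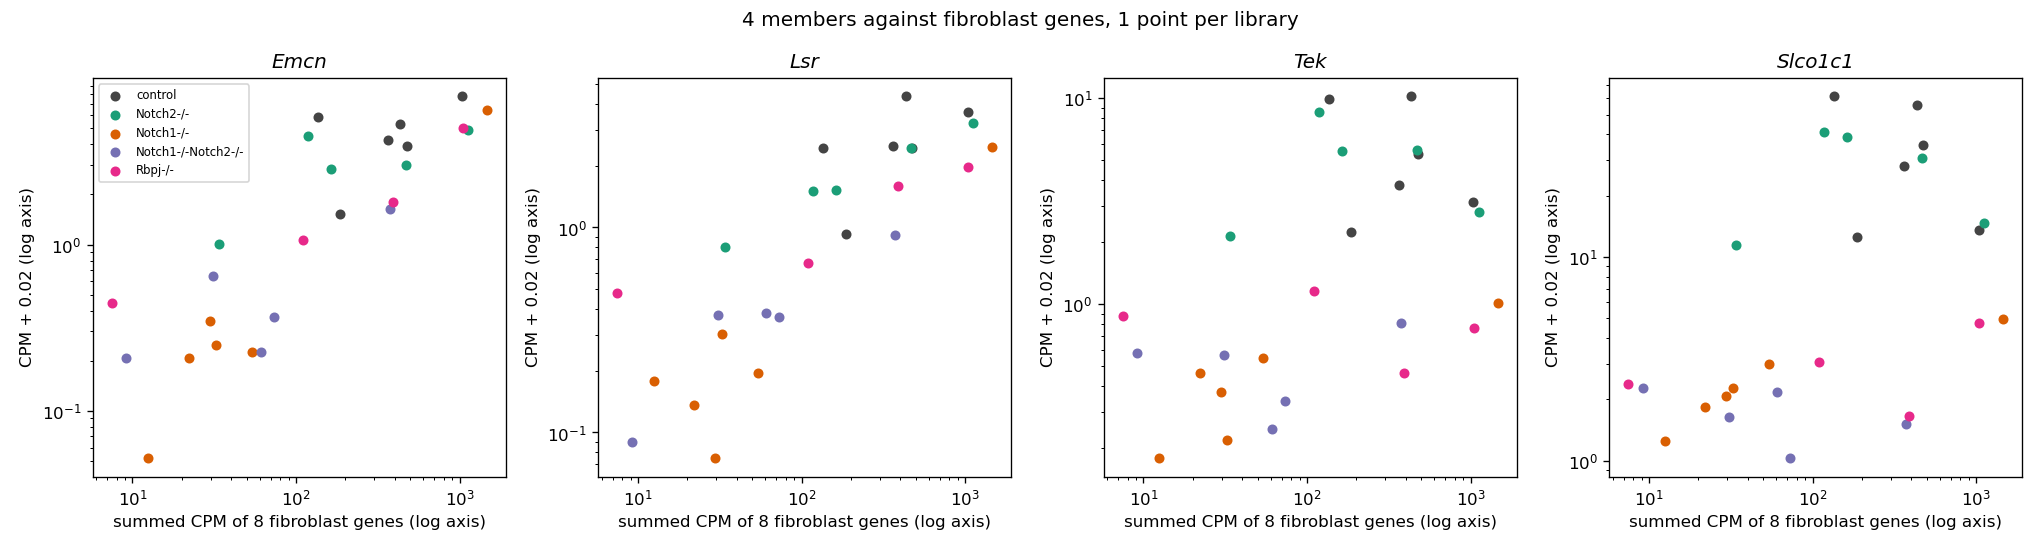
CPM of Emcn, Lsr, Tek and Slco1c1 (vertical log axis, a small constant added) against the summed CPM of 8 fibroblast genes (horizontal log axis), 1 point per library, coloured by genotype. Emcn and Lsr are high in the mutant libraries at the right, such as Notch1-/- replicate 5 (6.42 and 2.45 CPM), while Tek and Slco1c1 stay lower in Notch1-/-, Notch1-/-Notch2-/- and Rbpj-/- than in control and Notch2-/- wherever they lie on that axis.

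The comparisons were repeated in the libraries with Dcn under 50 CPM, an alternative added after the data were seen, which kept 2 control, 5 Notch1-/-, 3 Notch2-/-, 4 Notch1-/-Notch2-/- and 2 Rbpj-/- libraries. In them 24 of the 35 genes were called in Notch1-/-, 20 in Notch1-/-Notch2-/- and none in Rbpj-/-, where the calls over all genes were 215, 1195 and 5. All 20 in Notch1-/-Notch2-/- fell, and the rises of Erg and Podxl were no longer called. The median log2 fold changes of the pan-endothelial genes were -2.92, -2.32 and -1.59 and those of the barrier genes -3.38, -2.55 and -2.20. The Rbpj-/- comparison then had 2 libraries a group. Ly6a turned to 0.70 in Notch1-/- and 0.40 in Rbpj-/-, since the 2 controls kept were its low ones.

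Genes of other cells moved in the same comparisons. Of all genes tested, 13.5% fell in Notch1-/-, 18.8% in Notch1-/-Notch2-/- and 7.25% in Rbpj-/-, while 13.2%, 18.3% and 7.97% rose. Of 12 mural cell genes 7 fell in Notch1-/-, 4 in Notch1-/-Notch2-/- and 3 in Rbpj-/-, and none rose. Their mean log2 CPM was 1.951 to 3.304 in the control libraries and 0.837 to 2.683 in Notch2-/-, which reached below the controls. It was -0.189 to 1.753 in Notch1-/-, 0.497 to 1.949 in Rbpj-/- and 0.539 to 1.386 in Notch1-/-Notch2-/-. No library of these last 3 genotypes reached the controls, though the highest of Rbpj-/- almost did (1.949 against 1.951). The summed level of the mural genes overlapped between genotypes (491.1 to 833.4 CPM in control, 384.1 to 995.3 in Notch1-/-, 313.4 to 849.6 in Notch1-/-Notch2-/-, 521.5 to 1113 in Rbpj-/-). Cspg4 is on this list and also on that of oligodendrocyte precursors, and its part in the sum was not tested. Of 12 genes of microglia and macrophages 12, 11 and 11 fell, from a summed level of 335.0 to 1399 CPM in control to 49.6 to 245.1, 45.9 to 145.6 and 117.2 to 214.4 CPM. Of 10 genes of mature oligodendrocytes 8, 10 and 9 fell and of 10 astrocyte genes 6, 8 and 4. Of 10 genes of oligodendrocyte precursors 0, 2 and 0 fell and none rose. No gene of these lists was at 0 in all libraries of a genotype, and none was called in Notch2-/- by edgeR. There 2 mural and 6 microglial genes had an unadjusted p under 0.05, DESeq2 called 4 microglial genes, and limma voom called 6 microglial and 3 oligodendrocyte genes. The part of these cells in the results above was not tested.

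Other barrier genes, taken from a list of 18 that are not among the 35, were not uniformly lower. In Notch1-/- 3 rose and 4 fell (13.2% and 13.5% of all genes). In Notch1-/-Notch2-/- 6 rose and 4 fell (18.3% and 18.8% of all genes). In Rbpj-/- 2 rose and 3 fell (7.97% and 7.25% of all genes). F11r, the junctional adhesion molecule A, fell from 12.6 ± 4.74 CPM in control to 1.19 ± 1.03 in Notch1-/- (-3.40 ± 0.52, adjusted p = 0.000186), 1.05 ± 0.557 in Notch1-/-Notch2-/- (-3.58 ± 0.57, 8.71e-05) and 2.36 ± 0.662 in Rbpj-/- (-2.42 ± 0.58, 0.0103). The monocarboxylate carrier Slc16a4 fell in the same 3 genotypes by 2.28 ± 0.54, 2.45 ± 0.58 and 1.87 ± 0.61. Cgn, the junction plaque protein cingulin, and Lrp8, a receptor for reelin and apolipoprotein E, rose in all 3, Cgn by 0.94 to 1.31 and Lrp8 by 0.76 to 0.96.

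Of the VEGF and angiopoietin system, 13 of 14 listed genes were tested, and none rose. In Notch1-/- 5 fell (13.5% of all genes), in Notch1-/-Notch2-/- 5 (18.8%) and in Rbpj-/- 2 (7.25%). Of all genes, 13.2%, 18.3% and 7.97% rose in these genotypes. Flt4, the receptor for VEGF-C, fell by 2.56 ± 0.40, 2.24 ± 0.42 and 2.35 ± 0.46 (adjusted p = 0.000222, 0.000362 and 0.00354). Dll4, a Notch ligand of endothelial tip cells, fell by 2.37 ± 0.40, 1.09 ± 0.40 and 1.58 ± 0.44 (adjusted p = 0.000449, 0.0352 and 0.0207). Vegfa, the ligand of Flt1 and Kdr, had 107 ± 122 CPM in control and 62.5 to 145.5 CPM as the mean of a mutant genotype, and was not called in any comparison with control.

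Of 16 genes of Wnt and Norrin signalling, which maintains the barrier, 1 rose and 4 fell in Notch1-/-, 2 rose and 5 fell in Notch1-/-Notch2-/-, and 1 rose and 2 fell in Rbpj-/-. The shares of all genes that rose and fell were 13.2% and 13.5%, 18.3% and 18.8%, and 7.97% and 7.25% in that order. Ndp, which encodes the ligand Norrin, fell from 17.1 ± 4.09 CPM in control to 6.57 ± 1.62, 4.35 ± 1.65 and 7.12 ± 1.27 CPM (-1.38 ± 0.25, -1.97 ± 0.27 and -1.26 ± 0.28; adjusted p = 0.000649, 2.07e-05 and 0.00708). Apcdd1, a Wnt inhibitor that Wnt signals induce, fell by 0.96 ± 0.18, 0.66 ± 0.19 and 0.68 ± 0.21. Wnt7b, a Wnt ligand of neural cells, rose in Rbpj-/- (0.91 ± 0.28, adjusted p = 0.0299), and had 0.00 ± 0.25 in Notch1-/- and 0.18 ± 0.26 in Notch1-/-Notch2-/-, neither called. None of the 18 other barrier genes, the 13 VEGF and angiopoietin genes or the 16 Wnt and Norrin genes was called in Notch2-/- by edgeR; 4, 1 and 1 had an unadjusted p under 0.05, DESeq2 called none and limma voom called 4 of the other barrier genes.

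For 22 of the 35 genes a RefSeq table of assembly GRCm38.p6 gives the sequence before the gene's start. The sequences of 4 genes are shown because their genes contrast: Slco1c1, Abcb1a and Cldn5 fell in 3 genotypes and Abcg2 was not called in the main fit. They are printed 5′ to 3′ on the plus strand, on which all 4 genes lie, and end at the last base before the gene. Capitals mark AGGAAG, a core string that ETS factors such as Erg and Fli1 bind, here on the reverse strand as CTTCCT.
Slco1c1, chr6:141524104-141524353: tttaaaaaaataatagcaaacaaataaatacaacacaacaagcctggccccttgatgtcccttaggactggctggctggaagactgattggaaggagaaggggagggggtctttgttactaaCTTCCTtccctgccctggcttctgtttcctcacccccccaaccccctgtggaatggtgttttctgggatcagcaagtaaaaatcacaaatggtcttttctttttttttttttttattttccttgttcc
Abcb1a, chr5:8566841-8567090: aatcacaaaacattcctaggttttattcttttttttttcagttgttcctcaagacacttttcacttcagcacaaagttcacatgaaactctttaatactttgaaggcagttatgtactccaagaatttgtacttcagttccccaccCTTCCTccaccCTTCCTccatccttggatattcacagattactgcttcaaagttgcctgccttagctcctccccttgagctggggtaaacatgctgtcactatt
Cldn5, chr16:18776597-18776846: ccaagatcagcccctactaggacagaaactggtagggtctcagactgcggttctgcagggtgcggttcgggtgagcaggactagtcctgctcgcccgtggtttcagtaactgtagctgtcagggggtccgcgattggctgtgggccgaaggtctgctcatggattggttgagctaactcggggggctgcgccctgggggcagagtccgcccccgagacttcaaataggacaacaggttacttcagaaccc
Abcg2, chr6:58584283-58584490: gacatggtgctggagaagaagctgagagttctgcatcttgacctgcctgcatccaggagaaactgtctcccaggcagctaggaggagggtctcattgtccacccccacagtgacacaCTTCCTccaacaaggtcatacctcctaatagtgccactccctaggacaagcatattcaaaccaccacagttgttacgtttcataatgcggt

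The sequence of Abcg2 is shown for 208 bases, up to the gene. The search used 250 bases before each start that the table lists, on both strands, and a gene with several starts counts where any of them holds the string. AGGAAG occurred in 14 of the 22 genes with an entry and in 32.3% of the 27025 genes of the table. It was present before Abcg2, not called in the main fit, and before Erg, which did not fall. It was also present before Slco1c1, Slco1a4, Abcb1a, Tie1, Flt1 and Ly6c1, and absent before Cldn5. TGGGAA, the core that Rbpj binds, occurred in 7 of the 22 (Tie1, Kdr, Erg, Egfl7, Tal1, Adgrl4 and Slc38a5) and in 24.1% of all genes. ACAAAG, a core of Sox factors, occurred in 6 of the 22 and in 18.6% of all genes. The strings were kept after others had been looked at in these windows, and a match is a description of the sequence, not of binding.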

How the data were processed

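The deposited table holds whole-number counts per gene for 26 libraries of RNA from sorted GFP-positive glioma cells. Per the labels' protocols, total RNA came from a Trizol extraction and the library kit was TruSeq Stranded RNA LT. STAR and mm10 are named, per the submitters' processing notes; for the counting tool, its annotation and its strand setting the sources used here give nothing. The counts were used as the authors deposited them, with a gene length used only for levels per kilobase. Of 24454 genes, 24374 matched a symbol of RefSeq GRCm38.p6 and 80, with 0.348% of counts, did not.

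Genes were filtered with filterByExpr (15617 tested) and scaled by TMM. All libraries entered 1 genotype fit in edgeR 4.0.16 (R 4.3.3), the main fit, with quasi-likelihood tests and Benjamini-Hochberg adjustment over all genes. The common biological coefficient of variation was 0.368 and the prior count of log2 CPM 2. All 35 genes were examined in every comparison; from each other list at most 3 called genes were named, by adjusted p, or the 2 most abundant where none passed. Members and lists were chosen with earlier results of these data known. No library was a repeat of another of its genotype: over 56 replicate pairs the chi-square per gene was at least 42.3, and log2 CPM correlated at 0.900 to 0.984. Alternatives were the Wald test of DESeq2 1.42.0, its size factors within edgeR, limma 3.58.1 voom with quality weights, filters of none or of at least 10 CPM in at least 4 libraries, fits restricted to the libraries compared, a block for the replicate number, leaving out libraries with both Xist and Ddx3y, a prior count of 0.5, and each library left out. The fit was also run on counts simulated from its own model with known changes. Those counts lack shifts shared by many genes of a library, so the run cannot show how the fit fares under them.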

Additional observations from a re-analysis of the deposited data

Results flagged for a closer look

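Of 175 combinations of a gene and a genotype, 14 had 1 library far from the others of its group by Dixon's criterion, which chance alone gives in about 1 of 20 groups. In Notch1-/- replicate 5, where fibroblast genes were also high, Emcn stood at 6.42 CPM (the other 5 at most 0.328) and Lsr at 2.45 CPM (at most 0.284). Cdh5 was high in Notch1-/-Notch2-/- replicate 5 (3.02 CPM, the others 0.583 to 0.910), the library of its group with the highest fibroblast genes. In Notch2-/- replicate 1, with the lowest fibroblast genes of its group, Cdh5 (1.33 CPM, the others 5.67 to 7.22) and Foxq1 (0.0655 CPM, the others at least 0.481) were low. The part of fibroblasts in these values was not tested.

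In control replicate 4, Itm2a (19.0 CPM, the others at least 53.2) and Ly6c1 (3.79 CPM, the others at least 14.8) were low. Abcg2, called in no comparison with control in the main fit, had 1 low library in Notch1-/- (replicate 2, 54.1 CPM) and 1 in Notch2-/- (replicate 4, 91.0 CPM). Ly6c1 in Notch1-/- replicate 3 was 0.0316 CPM, which is 1 count. Abcb1a was low in Rbpj-/- replicate 1 (1.33 CPM, the others at least 2.70). Podxl was low in Notch1-/-Notch2-/- replicate 3 (20.0 CPM, the others 29.0 to 30.7), and so was Tal1 (0.0933 CPM). Tal1 was high in Notch2-/- replicate 4 at 1.71 CPM.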

How the results depend on the processing

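Counts of genes called among the 35 moved as follows. With the filter of 10 CPM in 4 libraries, only 14 of the 35 were tested. Of these 14, 9 were called in Rbpj-/-, 13 in Notch1-/-Notch2-/-, 11 in Notch1-/- and 8 in Notch1-/- against Notch2-/-. Calls over all genes with that filter were 1533, 4138, 3053 and 193 in that order. With Dcn under 50 CPM, an alternative chosen after seeing the data, 0 were called in Rbpj-/- and 20 in Notch1-/-Notch2-/-, and Ly6a reversed in Rbpj-/- (0.398) and Notch1-/- (0.703). Without the libraries with Xist and Ddx3y, 13 were called in Notch1-/- against Notch2-/-. DESeq2's Wald test called 1 in Notch2-/- and 1 in Rbpj-/- against Notch1-/-Notch2-/-, and limma voom 1 in the interaction; the cause was not tested. Leaving out each library gave 11 to 20 in Rbpj-/-, 31 to 32 in Notch1-/-Notch2-/- and 27 to 30 in Notch1-/-. It gave 0 to 0 in Notch2-/- and in Rbpj-/- against Notch1-/-Notch2-/-. For Notch1-/- against Notch2-/- it gave 18 to 28, and for the interaction 0 to 1 (Vwf, without Notch1-/- replicate 2). Calls over all genes in those fits ran from 1132 to 3292 in Rbpj-/-, 4639 to 6256 in Notch1-/-Notch2-/- and 2815 to 5290 in Notch1-/-. They ran from 21 to 83 in Notch2-/- and 21 to 156 in Rbpj-/- against Notch1-/-Notch2-/-. For Notch1-/- against Notch2-/- they ran from 275 to 841, and for the interaction from 5 to 227. With the replicate number as a block, 15 were called in Rbpj-/-, 32 in Notch1-/-Notch2-/- and 30 in Notch1-/-. In Notch2-/- 0 were called, in Notch1-/- against Notch2-/- 22 and in the other 2 comparisons 0. Calls over all genes with the block were 1304, 5245, 3884, 25 and 300 in the first 5 of these. In the main fit they were 2378, 5794, 4174, 46 and 482. The numbers do not pair the samples: of 47 same-number pairs 13 had a correlation of deviations over 0.1, and 4 of 26 libraries correlated best with their own number. Of 20, 32, 29 and 21 calls in Rbpj-/-, Notch1-/-Notch2-/-, Notch1-/- and Notch1-/- against Notch2-/-, 11, 31, 27 and 12 held under each of the alternatives listed in the methods in which the gene was tested. Of 143 results that were not called, 38 changed sign in some alternative. Sox17, Sox18, Tal1 and Foxq1 are limited by depth, since they had few counts in many libraries.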
